A study of Mus musculus with 8 samples.

Results

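The genes described here are 10 markers of T cells and natural killer (NK) cells, Cd3d, Cd3e, Cd3g, Cd8a, Cd4, Nkg7, Gzma, Gzmb, Ncr1 and Il7r. They were taken by symbol as a measure of lymphocyte RNA in sorted liver cells, and all 10 were found among the 21968 named genes of each library. All 10 passed the filter on low counts, as did 14404 genes in all. The RNA was sequenced in bulk from livers of Lgr5-LacZ transgenic mice on a mixed C57BL/6 and CBA background, 6 days after 1 intraperitoneal dose of carbon tetrachloride (CCl4, 1 µl per g body weight, in rapeseed oil). CCl4 is a toxin that injures hepatocytes.

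There were 4 groups with 2 libraries each, and each library held cells pooled from 2 mice. Paired values are those of replicate 1 and then replicate 2. The b-gal+ F4/80high and b-gal- F4/80high cells were sorted on an antibody to F4/80, a macrophage antigen, and split by a fluorogenic substrate of beta-galactosidase. The series title calls this enzyme activity endogenous. EpCAM-positive cells, called cholangiocytes in the series text, were sorted on an antibody to EpCAM, and hepatocytes were pelleted at low speed. The transgene and CCl4 were common to all 4 groups, so that no untreated or transgene-free liver was compared. The age is 10 to 12 weeks in the sample labels and 7 to 12 weeks in the series text. No antibody to a lymphocyte antigen was named for any gate. The labels do not say whether libraries of different groups came from the same mice, and p-values measure the spread between these pools.

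T cells recognise antigen through a receptor that signals through the CD3 chains, with CD4 or CD8 as coreceptor. Cytotoxic T cells and NK cells kill through granules that carry granzymes, and the liver holds many NK cells and related innate lymphocytes along its sinusoids. Outside the T cell lineage, CD4 is also carried by some dendritic cells and macrophages, and the IL-7 receptor by other lymphoid cells.

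Cd3d, Cd3e and Cd3g lie together on mouse chromosome 9. In GENCODE M21 (GRCm38), Cd3g spans chr9:44969572-44980431 on the minus strand, Cd3d chr9:44981786-44987339 on the plus strand and Cd3e chr9:44998740-45009627 on the minus strand. The starts of Cd3d and Cd3g are 1355 bases apart and face away from each other, while Cd3e starts 27841 bases from Cd3d. Cd3e overlaps the antisense gene Gm48719 and the unclassified transcript Gm48720, and the counting was not stated to use strand, so that its reads may include theirs. Cd3d, Cd3e and Cd3g had similar profiles over the libraries, but so did Cd8a on chromosome 6, which lay nearer to Cd3d than Cd3e or Cd3g did. The upstream sequences are shown because the Cd3 genes share 1 locus. They are 250 bases before each start as RefSeq gives it (GRCm38.p6), at chr9:44981536-44981785 on the plus strand for Cd3d, and on the minus strand at chr9:45009612-45009861 for Cd3e and chr9:44980432-44980681 for Cd3g. The RefSeq start of Cd3e lies inside the GENCODE span, so that the end of its window is part of the gene in GENCODE. Capitals mark matches to GGAAG, searched as an ETS motif, or to CAGNTG, an E-box, on either strand. The shorter ETS core GGAA was not searched by itself.
Cd3d: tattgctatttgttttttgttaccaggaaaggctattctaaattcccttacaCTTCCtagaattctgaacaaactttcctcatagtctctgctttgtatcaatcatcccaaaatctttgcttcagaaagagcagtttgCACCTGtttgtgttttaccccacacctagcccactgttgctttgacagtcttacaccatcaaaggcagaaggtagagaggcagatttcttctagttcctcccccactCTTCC
Cd3e: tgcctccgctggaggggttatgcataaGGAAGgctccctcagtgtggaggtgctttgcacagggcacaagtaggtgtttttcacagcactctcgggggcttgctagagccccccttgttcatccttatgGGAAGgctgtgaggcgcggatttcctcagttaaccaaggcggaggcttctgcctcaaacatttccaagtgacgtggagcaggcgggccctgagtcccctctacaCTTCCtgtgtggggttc
Cd3g: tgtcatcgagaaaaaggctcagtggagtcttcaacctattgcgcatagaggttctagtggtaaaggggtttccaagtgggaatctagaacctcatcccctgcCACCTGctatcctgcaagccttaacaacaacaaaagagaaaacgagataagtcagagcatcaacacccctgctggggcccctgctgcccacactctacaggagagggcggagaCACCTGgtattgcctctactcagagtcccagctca

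The Cd3d sequence held 2 GGAAG matches, at 198 and 5 bases before the start, and 1 E-box. The Cd3e sequence held 3 GGAAG matches, at 223, 121 and 17 bases, and no E-box. The Cd3g sequence held 2 E-boxes, at 148 and 35 bases, 1 match to the GATA motif AGATAA and no GGAAG match. No sequence matched the RUNX motif TGTGGT or the TATA box TATAAA. Among 32851 RefSeq promoters, windows of the same length held GGAAG in 64.1%, an E-box in 44.8%, the RUNX motif in 14%, the GATA motif in 9.99% and the TATA box in 12.4%. No motif letters among those searched were shared by all 3 genes, and the matches are a description of these windows.

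The libraries held 16948568 to 24549242 reads in named genes, with 14432 to 16130 genes detected, and 3 reads corresponded to 0.122 to 0.177 CPM (read counts scaled to a common library total). Marker sums, in CPM before TMM scaling, set the 4 groups apart. The 10 macrophage and Kupffer cell markers summed to 32225 and 33187 in the b-gal+ pools, 4037 and 2733 in the b-gal- pools, 1642 and 385 in the EpCAM-positive pools, and 168 and 123 in hepatocytes. The 10 sinusoidal endothelial markers summed to 3146 and 2361 in the b-gal+ pools, 23742 and 27566 in the b-gal- pools, 12082 and 10369 in the EpCAM-positive pools, and 238 and 554 in hepatocytes. Thus the b-gal- F4/80high gate held more endothelial than macrophage marker RNA, and the groups are called here by their gates. The 8 B and plasma cell markers summed to 20.8 and 26.8 in the b-gal+ pools, 57.5 and 98.1 in the b-gal- pools, 6137 and 2475 in the EpCAM-positive pools, and 0.611 and 1.47 in hepatocytes. The 7 cholangiocyte markers summed to 2903 and 9674 in EpCAM-positive replicates 1 and 2. In both replicates this lay below the sinusoidal endothelial sum, and in replicate 1 also below the B and plasma cell sum. In replicate 1 the cholangiocyte and the B and plasma cell sums were each mostly 1 gene. There Jchain held 124466 of 142415 B and plasma cell marker reads, and Spp1 60460 of 67359 cholangiocyte marker reads. In bulk RNA, fewer cells of a type and less RNA per cell cannot be told apart.

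Transcripts of the 10 genes were scarce in hepatocytes and present in the other 3 groups, but in different proportions. The reads of the 10 genes came to 885 and 1524 in the b-gal+ pools, 409 and 935 in the b-gal- pools, 2405 and 740 in the EpCAM-positive pools, and 25 and 32 in hepatocytes. Cd4 alone made up 80% of these reads in b-gal+ replicate 1 (exact 95% interval 77.2% to 82.6%) and 74.7% in replicate 2 (72.4% to 76.8%). Its share was 22% and 15.8% in the b-gal- pools, 20.8% and 29.1% in the EpCAM-positive pools, and 60% and 71.9% of the few reads in hepatocytes. The intervals cover counting error only, since reads are not independent molecules. Without Cd4 and Il7r, the other 8 genes summed to 3.29 and 4.73 CPM in the b-gal+ pools, 8.61 and 36.5 CPM in the b-gal- pools, 61.1 and 20.3 CPM in the EpCAM-positive pools, and 0.122 and 0.337 CPM in hepatocytes, before TMM scaling. Leaving out Cd4 and Il7r was chosen after their values were seen. All 10 genes summed to 42.1 and 66.1 CPM in the b-gal+ pools, 18.5 and 55.2 CPM in the b-gal- pools, 104 and 41.1 CPM in the EpCAM-positive pools, and 1.02 and 1.35 CPM in hepatocytes. The sums over all 10 genes overlapped among the 3 sorted groups.

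**Figure D1:**
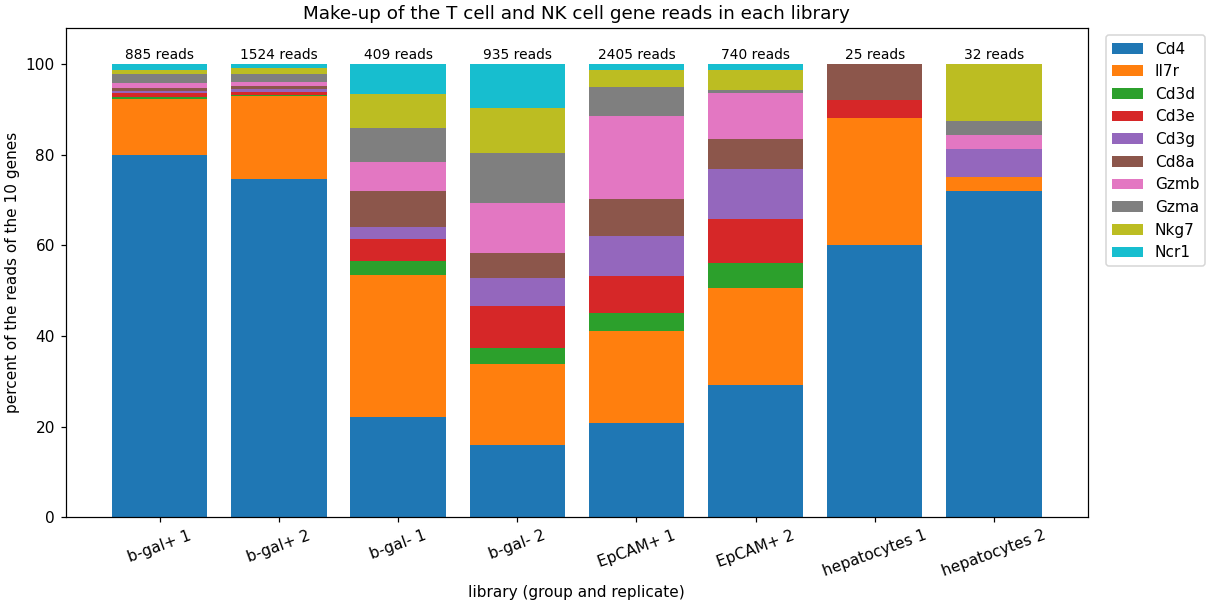
Stacked bars give the percent of the reads of the 10 T cell and NK cell genes that each gene holds in each of the 8 libraries, with the number of reads above each bar. Cd4 fills 80% and 74.7% of the b-gal+ bars, and 15.8% to 29.1% of the b-gal- and EpCAM-positive bars.

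Profiles of the genes over the 8 libraries, compared as the root mean square distance between log2(CPM + 0.5) values centred on each gene's mean, set Cd4 apart from the other genes except Il7r. Among the 8 genes other than Cd4 and Il7r the distance ran from 0.30, between Cd3d and Cd8a, to 1.18, between Gzmb and Ncr1. Il7r lay 1.01 to 1.22 from the other genes, a range that overlaps the distances among those 8. Cd4 lay 1.08 from Il7r and 1.52 to 1.88 from the 8. The distances are a description over 8 libraries.

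**Figure D2:**
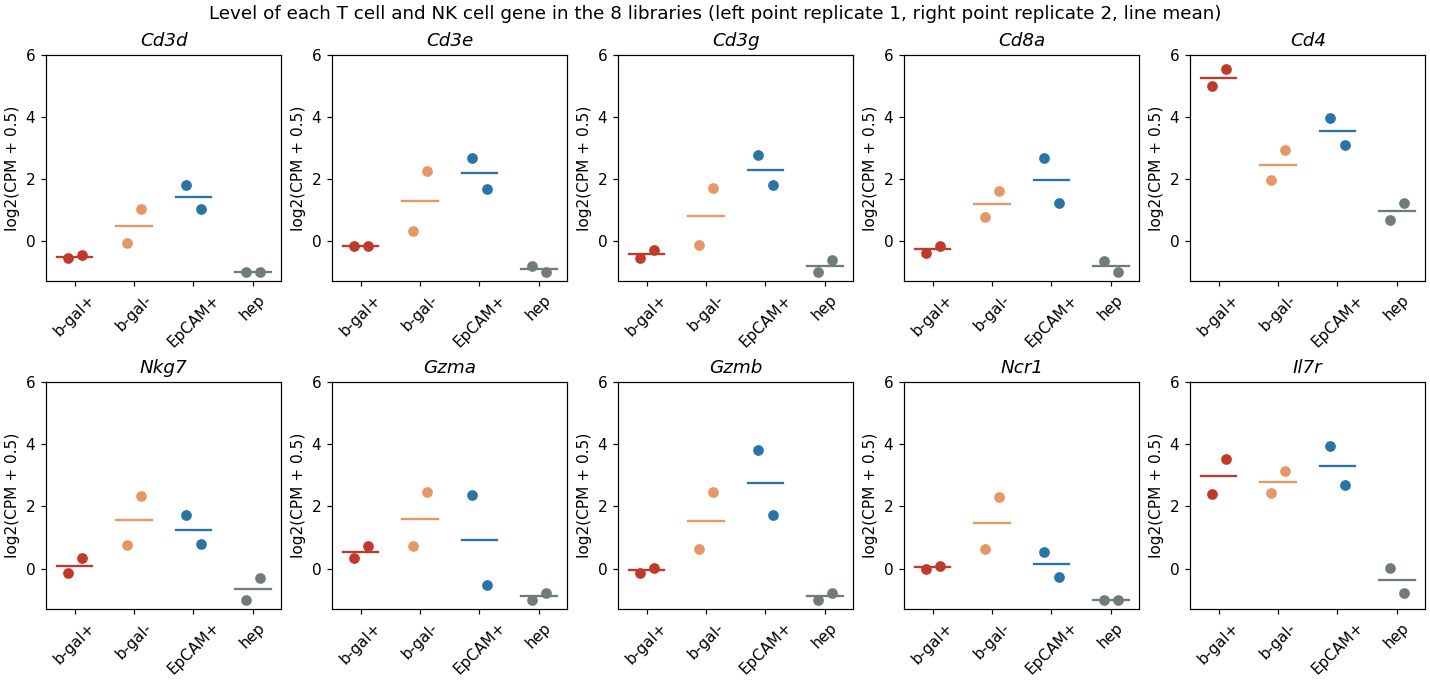
Points give log2(CPM + 0.5) of each gene in each library after TMM scaling, and lines the mean of 2 libraries of a group (hep, hepatocytes; EpCAM+, EpCAM-positive). Cd4 alone is highest in b-gal+ cells, and b-gal- replicate 2 and EpCAM-positive replicate 1 lie above their partners for all 10 genes.

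The CD3 chains, the signalling subunits of the T cell receptor, were highest in EpCAM-positive cells. Cd3e had 9 and 10 reads in the b-gal+ pools, 20 and 87 in the b-gal- pools, 196 and 72 in the EpCAM-positive pools, and 1 and 0 in hepatocytes. After TMM scaling its level was 0.402 ± 0.000211 CPM in the b-gal+ pools, 2.51 ± 2.47 in the b-gal- pools, 4.32 ± 2.31 in EpCAM-positive cells and 0.0369 ± 0.0522 in hepatocytes (SD, n = 2 each). The b-gal+ libraries lay below both b-gal- libraries, and the b-gal- and EpCAM-positive libraries overlapped. Cd3d had 4 and 6 reads in the b-gal+ pools, 12 and 32 in the b-gal- pools, 98 and 41 in the EpCAM-positive pools, and none in hepatocytes. Cd3g had 4 and 8 reads in the b-gal+ pools, 11 and 57 in the b-gal- pools, 210 and 81 in the EpCAM-positive pools, and 0 and 2 in hepatocytes. Cd3g was the chain whose EpCAM-positive libraries lay above both b-gal- libraries. Between the replicates of b-gal-, Cd3e differed by 1.91 and Cd3g by 1.83 on the log2(CPM + 0.5) scale, which is more than the difference of either gene between the b-gal+ and b-gal- means.

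The coreceptors went separate ways. Cd8a, the alpha chain of the CD8 coreceptor on cytotoxic T cells, had 6 and 10 reads in the b-gal+ pools, 32 and 53 in the b-gal- pools, 194 and 50 in the EpCAM-positive pools, and 2 and 0 in hepatocytes. Its order was that of the CD3 chains, and its level was 0.335 ± 0.0947 CPM in the b-gal+ pools, 1.91 ± 0.965 in the b-gal- pools, 3.88 ± 2.85 in EpCAM-positive cells and 0.0738 ± 0.104 in hepatocytes (SD, n = 2 each). Cd4, the coreceptor of helper T cells, had 708 and 1138 reads in the b-gal+ pools, 90 and 148 in the b-gal- pools, 501 and 215 in the EpCAM-positive pools, and 15 and 23 in hepatocytes. Its level was 38.7 ± 9.98 CPM in the b-gal+ pools, 5.35 ± 2.68 in the b-gal- pools, 11.6 ± 5.08 in EpCAM-positive cells and 1.47 ± 0.515 in hepatocytes (SD, n = 2 each), and no library of 1 group overlapped another group. There were 78.7 and 114 Cd4 reads per Cd3e read in the b-gal+ pools, 4.5 and 1.7 in the b-gal- pools, and 2.56 and 2.99 in the EpCAM-positive pools. The ratio to Cd8a was 118 and 114 in the b-gal+ pools, 2.81 and 2.79 in the b-gal- pools, and 2.58 and 4.3 in the EpCAM-positive pools. Both ratios thus set b-gal+ apart from the other sorted groups without overlap. Cd4 and the macrophage marker sum were both highest in the b-gal+ pools. The EpCAM-positive pools had more Cd4 than the b-gal- pools with lower macrophage sums, and their dendritic cell marker sum was higher. The part of macrophage or dendritic cell RNA in the Cd4 level was not tested.

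Genes of the cytotoxic granule differed in where they peaked. Gzmb, the granzyme that cleaves caspases, had 9 and 13 reads in the b-gal+ pools, 27 and 102 in the b-gal- pools, 444 and 75 in the EpCAM-positive pools, and 0 and 1 in hepatocytes. EpCAM-positive replicate 1 held more Gzmb reads than the other 7 libraries together. Gzma, a granzyme with a tryptase-like cut, had 17 and 29 reads in the b-gal+ pools, 30 and 103 in the b-gal- pools, 152 and 5 in the EpCAM-positive pools, and 0 and 1 in hepatocytes. The EpCAM-positive libraries of Gzma, at 4.62 and 0.187 CPM, lay on either side of both b-gal+ libraries and of b-gal- replicate 1. The ratio of Gzmb to Gzma reads was 0.529 and 0.448 in the b-gal+ pools, 0.9 and 0.99 in the b-gal- pools, and 2.92 and 15 in the EpCAM-positive pools, without overlap between these groups. Nkg7, a granule membrane protein of NK and cytotoxic T cells, had 9 and 19 reads in the b-gal+ pools, 31 and 94 in the b-gal- pools, 92 and 33 in the EpCAM-positive pools, and 0 and 4 in hepatocytes. Its level was 0.583 ± 0.256 CPM in the b-gal+ pools, 2.89 ± 2.41 in the b-gal- pools, 2.02 ± 1.1 in EpCAM-positive cells and 0.16 ± 0.226 in hepatocytes (SD, n = 2 each).

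Ncr1, which encodes the activating receptor NKp46 of NK cells and group 1 innate lymphoid cells, had its highest mean level in b-gal- cells. It had 11 and 14 reads in the b-gal+ pools, 27 and 90 in the b-gal- pools, 31 and 9 in the EpCAM-positive pools, and none in hepatocytes. After TMM scaling both b-gal- libraries, at 1.04 and 4.4 CPM, lay above both EpCAM-positive libraries, at 0.942 and 0.337 CPM. Before TMM scaling the groups overlapped, with 0.794 CPM per kilobase of exon in b-gal- replicate 1 against 0.868 in EpCAM-positive replicate 1. There were 1.22 and 1.4 Ncr1 reads per Cd3e read in the b-gal+ pools, 1.35 and 1.03 in the b-gal- pools, and 0.158 and 0.125 in the EpCAM-positive pools. The ratio in EpCAM-positive cells lay below that of both other groups, which overlapped each other.

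Il7r, the receptor for the lymphoid survival factor IL-7, had 108 and 277 reads in the b-gal+ pools, 129 and 169 in the b-gal- pools, 487 and 159 in the EpCAM-positive pools, and 7 and 1 in hepatocytes. Its level was 7.99 ± 4.46 CPM in the b-gal+ pools, 6.61 ± 2.34 in the b-gal- pools, 10.4 ± 6.26 in EpCAM-positive cells and 0.298 ± 0.309 in hepatocytes (SD, n = 2 each). The 3 sorted groups overlapped one another and lay above hepatocytes. There were 12 and 27.7 Il7r reads per Cd3e read in the b-gal+ pools, 6.45 and 1.94 in the b-gal- pools, and 2.48 and 2.21 in the EpCAM-positive pools.

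Levels of different genes were set side by side per length, as CPM per kilobase of exon before TMM scaling. In b-gal+ cells Cd4 had the highest level per length of the 10 genes, at 8.36 and 12.2, with Il7r next at 1.1 and 2.58. In b-gal- replicate 1, Nkg7 at 1.54, Gzma at 1.35 and Il7r at 1.25 led, with Cd4 at 1.01 and Gzmb at 0.852. In b-gal- replicate 2, Nkg7 at 6.07, Gzma at 6.04 and Gzmb at 4.19 had the highest levels per length, with Cd3e at 1.26. In EpCAM-positive replicate 1, Gzmb led at 13.3, followed by Gzma at 6.51 and Cd4 at 5.35. In EpCAM-positive replicate 2, Cd4 at 2.96 and Gzmb at 2.9 led, with Gzma at 0.276. The leading gene per length thus differed between the EpCAM-positive replicates.

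Between b-gal+ and b-gal- cells, Cd4 was higher in b-gal+ cells. Of the other 9 genes, 8, all but Il7r, had lower mean levels there without passing limma's test. Differences are of mean log2(TMM-scaled CPM + 0.5), which understates changes of low genes, and limma's adjusted p under 0.05 is a call. The Cd4 difference was 2.80 ± 0.46 (SE), a 6.97-fold higher level on this scale (limma's adjusted p = 0.00648), and both b-gal+ libraries lay above both b-gal- libraries. This was 1 of 10 genes called, where 23.3% of all 14404 genes were called, 10.4% higher and 13% lower. Without overlap, 1 of 10 was higher, where 33.8% of all genes were. Libraries of Cd3d, Cd3e, Cd3g, Cd8a, Nkg7, Gzmb and Ncr1 were lower in b-gal+ without overlap, 7 of 10, where 35.2% of all genes were. Their differences ran from -0.99 for Cd3d to -1.60 for Gzmb, with limma's adjusted p of 0.0908 for Cd8a and 0.207 for Gzmb. With DESeq2, Cd8a and Cd3e were called lower (DESeq2's adjusted p = 0.0383 and 0.0449). Calls over all genes then numbered 4368, against 3358. The 95% interval, with no adjustment for the number of genes, was -2.72 to -0.23 for Cd8a and -2.96 to 0.07 for Cd3e. Gzma, at -1.06, and Il7r, at 0.19, overlapped between the groups. Of the 8 genes with lower means, all but Cd8a differed more between the b-gal- replicates than between the groups. That replicate gap was 1.59 for Nkg7, 1.75 for Gzma, 1.84 for Gzmb and 1.67 for Ncr1, against 0.84 for Cd8a. The median over the 10 genes was -1.32, against -0.02 over all genes. Cd3d, Cd3e, Cd3g, Cd8a, Nkg7 and Gzmb had 10 reads or fewer in at least 1 b-gal+ library and passed the filter through other groups. The filter changed no level, but entry through other groups partly fixed the direction of their differences.

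The count for b-gal+ against b-gal- cells depended on single libraries, and the count of calls over all genes changed with them too. It was 0 without b-gal+ replicate 2, where limma's adjusted p of Cd4 was 0.0587, 5 without b-gal- replicate 1, and 2 without either EpCAM-positive library. In the 5, the calls besides Cd4 were lower levels of Cd3e, Cd3g, Nkg7 and Ncr1. The summed macrophage markers were higher and the summed endothelial, B and plasma cell and dendritic cell markers lower in both b-gal+ libraries, and their part in these differences was not tested. The 8 dendritic cell markers summed to 100 and 119 CPM in the b-gal+ pools, 261 and 358 in the b-gal- pools, 1313 and 518 in the EpCAM-positive pools, and 5.7 and 6.78 in hepatocytes, and Cd209a had no read in b-gal+ replicate 1.

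**Figure D3:**
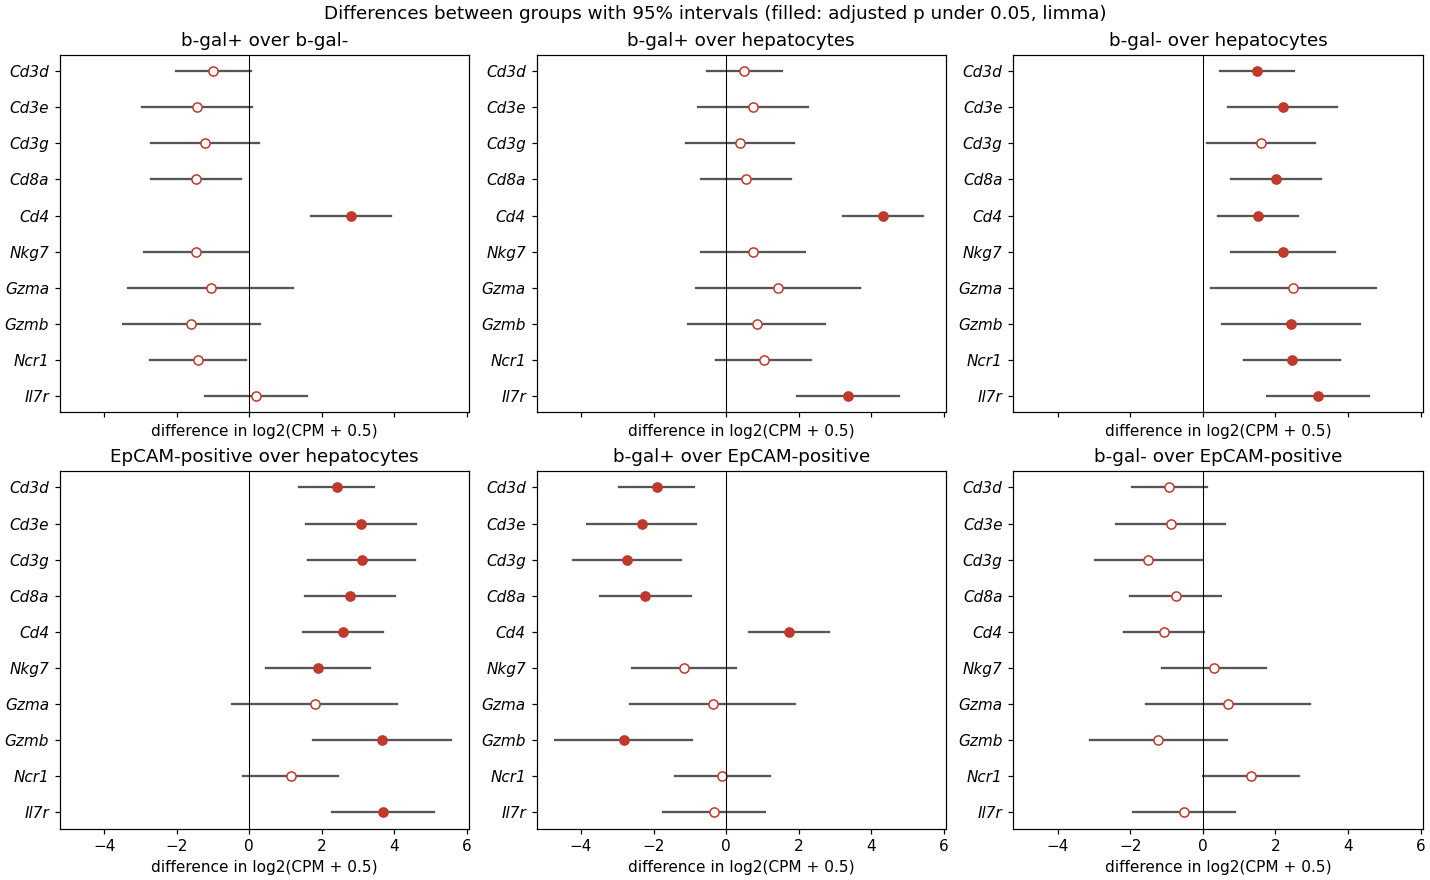
Each panel gives 1 comparison, with the difference in log2(CPM + 0.5) of the 10 genes on the horizontal axis, 95% intervals as lines, and filled points for limma's adjusted p under 0.05. Cd4 is on the opposite side of 0 from the CD3 chains in both panels that set b-gal+ cells against another sorted group.

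Against EpCAM-positive cells, b-gal+ cells had more Cd4 and less of the CD3 chains, Cd8a and Gzmb. The Cd4 difference was 1.74 ± 0.46 (limma's adjusted p = 0.0288). Cd3d fell by 1.91 ± 0.43 (limma's adjusted p = 0.0164), Cd3e by 2.33 ± 0.64 (0.031), Cd3g by 2.72 ± 0.62 (0.0169), Cd8a by 2.23 ± 0.52 (0.0185) and Gzmb by 2.82 ± 0.79 (0.0346), each without overlap. With Nkg7, 6 of 10 genes were lower without overlap, where 34.4% of all genes were, and 1 was higher, where 31.7% were. Thus 1 of 10 genes was called higher, where 14.7% of all genes were, and 5 were called lower, where 17.9% were. Nkg7 differed by -1.16, Gzma by -0.37, Ncr1 by -0.10 and Il7r by -0.33 without a call, and the interval for Ncr1 was -1.41 to 1.22. The median over the 10 genes was -1.53, against -0.03 over all genes. The 6 genes lower without overlap passed the filter through groups other than b-gal+. The direction of their differences was thus partly fixed by entry to the test. When libraries were left out, the count of calls over all genes changed too. All 6 calls were lost without either b-gal+ library, with limma's adjusted p of 0.0717 to 0.131 without replicate 1 and 0.0743 to 0.162 without replicate 2. Without EpCAM-positive replicate 1 there were 3 calls, with Cd3e at 0.102, Cd3g at 0.0557 and Gzmb at 0.101 by limma's adjusted p. Without hepatocyte replicate 1 or 2, which enter the fit but not this comparison, Cd4, Cd3e and Gzmb lost their calls, and Cd4 was at 0.0533 and 0.0538 by limma's adjusted p. Without EpCAM-positive replicate 2, Cd4 was at 0.115 by limma's adjusted p.

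Between b-gal- and EpCAM-positive cells, none of the 10 genes passed the test with limma, edgeR or DESeq2, where limma called 12.2% of all genes, 5.63% higher and 6.57% lower. At an unadjusted p under 0.05 there were 2 by limma, Cd3g and Ncr1, on opposite sides. Cd3g differed by -1.50 (unadjusted 95% interval -2.98 to -0.02, limma's adjusted p = 0.163) and Ncr1 by 1.32 (0.01 to 2.64, limma's adjusted p = 0.165). After TMM scaling the libraries of these 2 genes and of Cd4, at -1.07, did not overlap: 1 of 10 was higher, where 32.4% of all genes were, and 2 of 10 were lower, where 23.3% were. The higher gene was Ncr1, whose libraries overlapped before TMM scaling. The median was -0.82, against 0.07 over all genes. Nkg7 and Gzma lay at 0.30 and 0.69, with 95% intervals of -1.13 to 1.73 and -1.58 to 2.96.

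Against hepatocytes, the levels of all 10 genes were higher in every sorted library, and the comparisons share the hepatocyte libraries. In b-gal+ cells 2 of 10 genes were called higher, where 29.5% of all genes were. These were Cd4, with a difference of 4.32 ± 0.46 (limma's adjusted p = 0.000229), and Il7r, with 3.36 ± 0.59 (0.00243). The count was 5 with DESeq2 and 7 when only these groups were fitted. Over all genes, calls in either direction numbered 8522, against 8966 with DESeq2 and 8827 when only these groups were fitted. In b-gal- cells 8 of 10 were called higher, where 33.5% of all genes were, led by Il7r at 3.17 ± 0.59 (0.00297) and Ncr1 at 2.46 ± 0.55 (0.00697). Gzma and Cd3g were not called there, with limma's adjusted p of 0.056 and 0.059. In EpCAM-positive cells 8 of 10 were called higher, where 33.5% of all genes were, led by Il7r at 3.69 ± 0.59 (0.00159) and Gzmb at 3.66 ± 0.79 (0.00629). Gzma and Ncr1 were not called there, at 1.80 ± 0.96 and 1.14 ± 0.55. All 10 were higher without overlap in each comparison, where 43.2% of all genes were in the b-gal+ pools, 47.5% in b-gal- and 44% in EpCAM-positive cells. All but Cd4 had at most 7 reads in a hepatocyte library and passed the filter through the sorted groups. The direction of their differences from hepatocytes was thus partly fixed by entry to the test.

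Hepatocyte levels were near the floor, so fitted differences depend on the pseudocount. Cd3d and Ncr1 had no read in either hepatocyte library. Against a floor of 3 reads over the hepatocyte group, Cd3d was at least 1.84-fold higher in the b-gal+ pools, 8.23-fold in b-gal- and 20.3-fold in EpCAM-positive cells. Ncr1 was on the same footing at least 4.6-fold, 21.9-fold and 5.83-fold higher in b-gal+, b-gal- and EpCAM-positive cells. Cd3e, with 1 read in hepatocytes, had a ratio of TMM-scaled reads of 10.5 in b-gal+ (exact 95% counting interval 1.67 to 436), 60 in b-gal- (10.5 to 2392) and 117 in EpCAM-positive cells (20.8 to 4644). For Cd3g in b-gal+ cells, with 12 reads against 2, the ratio was 3.31 and its interval of 0.738 to 30.5 included 1. For Cd4, with 38 hepatocyte reads, the ratio was 26.8 in b-gal+ (19.5 to 38), 3.51 in b-gal- (2.49 to 5.09) and 8.24 in EpCAM-positive cells (5.94 to 11.7). The median difference of the 10 genes was 0.79 in the b-gal+ pools, 2.20 in b-gal- and 2.68 in EpCAM-positive cells, or 0.86, 2.31 and 2.93 with the genes at 0 set to their bounds, against 0.10, 0.17 and 0.15 over all genes. For b-gal- cells the calls of Ncr1 and Il7r alone were left without b-gal- replicate 2, and 3 calls without hepatocyte replicate 1 or 2. The Cd4 call there was at 0.148 without b-gal- replicate 2, 0.136 without hepatocyte replicate 1 and 0.0529 without hepatocyte replicate 2 by limma's adjusted p. For EpCAM-positive cells the Nkg7 call was lost without EpCAM-positive replicate 1 (limma's adjusted p = 0.121), hepatocyte replicate 1 (0.158) or hepatocyte replicate 2 (0.0607).

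**Figure D4:**
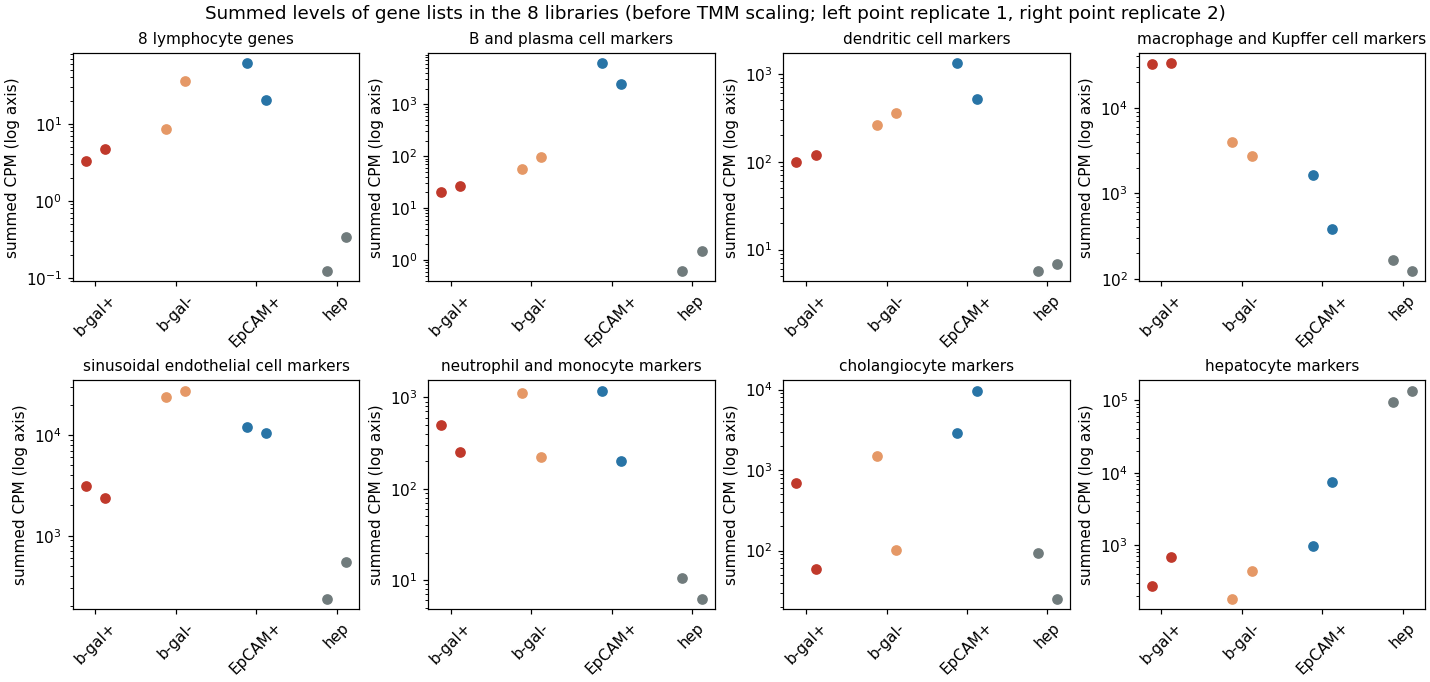
Points give the summed CPM of a gene list in each library on log axes before TMM scaling, for the 8 lymphocyte genes (all but Cd4 and Il7r) and 7 marker lists (hep, hepatocytes; EpCAM+, EpCAM-positive). The 8 lymphocyte genes sum to 61.1 CPM in EpCAM-positive replicate 1 and 36.5 in b-gal- replicate 2, and the B and plasma cell and dendritic cell sums are also highest in EpCAM-positive replicate 1.

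Marker sums moved with the lymphocyte genes in part. The B and plasma cell and dendritic cell sums, like those of the 8 lymphocyte genes, were highest in EpCAM-positive replicate 1 and lowest in hepatocytes, and within EpCAM-positive cells all 3 sums were higher in replicate 1. Within b-gal- all 3 were higher in replicate 2. The 8 neutrophil and monocyte markers summed to 502 and 254 CPM in the b-gal+ pools, 1125 and 224 in the b-gal- pools, 1181 and 203 in the EpCAM-positive pools, and 10.5 and 6.27 in hepatocytes, with replicate 1 higher in every group. The 5 mast cell and basophil markers summed to 4.76 and 4.99 CPM in the b-gal+ pools, 44.5 and 58.5 in the b-gal- pools, 27.8 and 28.2 in the EpCAM-positive pools, and 0.692 and 0.968 in hepatocytes. Of these, Gata2 was the 1 gene that passed the filter, and it carried 974 of 982 reads in b-gal- replicate 1 and 991 of 992 in replicate 2. The cholangiocyte markers summed to 700 and 59.8 CPM in the b-gal+ pools, 1495 and 101 in the b-gal- pools, and 93.3 and 25.4 in hepatocytes. In the F4/80high pools that sum was mostly Spp1, with 14647 of 14702 reads in b-gal+ replicate 1 and 32892 of 32995 in b-gal- replicate 1, where Epcam had 0 and 22 reads. The 8 hepatocyte markers summed to 275 and 687 CPM in the b-gal+ pools, 184 and 444 in the b-gal- pools, 990 and 7375 in the EpCAM-positive pools, and 93571 and 135807 in hepatocytes. The part of any of these cell types in the lymphocyte gene levels was not tested.

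Signalling genes of the T cell receptor were called in both directions in b-gal+ cells. Of 27 listed genes 23 were found and 20 tested, and the T cell receptor constant genes Trac, Trbc1, Trbc2 and Trdc were not analysed here. In b-gal+ against b-gal- cells 7 of 20 were called lower, where 13% of all genes were, and 2 higher, where 10.4% were, with a median of -1.20. Against EpCAM-positive cells 13 were called lower, where 17.9% of all genes were, and 2 higher, where 14.7% were. Fyn, a Src kinase that phosphorylates CD3 chains and is used by many cell types, had 133 and 114 CPM in the b-gal+ pools, 514 and 570 in the b-gal- pools, 289 and 211 in the EpCAM-positive pools, and 14.1 and 25.9 in hepatocytes. It fell by 2.13 ± 0.30 in b-gal+ against b-gal- cells (limma's adjusted p = 0.00346), and Prkcq, a protein kinase C isoform of T cell signalling, fell by 1.65 ± 0.22 (0.00277). Rasgrp1, an activator of Ras in lymphocytes, had 146 and 178 CPM in b-gal+ against 31.2 and 30.2 in b-gal-, a difference of 2.38 ± 0.48 (limma's adjusted p = 0.0137). Leaving out any 1 of the 4 libraries compared ended that call, at 0.059 and 0.0938 without b-gal+ replicates 1 and 2, and 0.056 and 0.0816 without b-gal- replicates 1 and 2 by limma's adjusted p. Lcp2, the adaptor SLP-76, which macrophages also use, had 415 and 383 CPM in b-gal+ against 148 and 82.6 in b-gal- (limma's adjusted p = 0.0487, 0.064 at the scale of the deposited values, and 0.0663 with edgeR's quasi-likelihood test). Its adjusted p by limma was 0.176 and 0.171 without b-gal+ replicates 1 and 2, 0.0663 and 0.256 without b-gal- replicates 1 and 2, and 0.0954 and 0.0953 without hepatocyte replicates 1 and 2.

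Zap70 and Cd8b1 are named after their values were seen. Zap70, the kinase that binds phosphorylated CD3 chains, had 10 and 19 reads in the b-gal+ pools, 81 and 130 in the b-gal- pools, 122 and 51 in the EpCAM-positive pools, and 553 and 408 in hepatocytes. Its level was 0.606 ± 0.224 CPM in the b-gal+ pools, 4.74 ± 2.3 in b-gal- and 2.81 ± 1.27 in EpCAM-positive cells, against 36.7 ± 5.84 in hepatocytes (SD, n = 2 each), which had at most 2 reads of any CD3 chain. Zap70 fell by 5.08 ± 0.43 in b-gal+ (limma's adjusted p = 8.41e-05), 2.89 ± 0.43 in b-gal- (0.00108) and 3.54 ± 0.43 in EpCAM-positive cells (0.000483), each against hepatocytes. Cd8b1, the beta chain of CD8, had 4 and 1 reads in the b-gal+ pools, 18 and 19 in the b-gal- pools, 31 and 16 in the EpCAM-positive pools, and 2 and 1 in hepatocytes. It differed by -1.11 ± 0.28 in b-gal+ against b-gal- cells (limma's adjusted p = 0.0291), a call lost without any 1 of these 4 libraries, at 0.0763 and 0.171 without b-gal+ replicates 1 and 2 and 0.0746 and 0.173 without b-gal- replicates 1 and 2. The Cd8b1 call also depended on the pseudocount, with limma's adjusted p of 0.0529 at 2 CPM. Where Cd8a had 32 and 53 reads in b-gal- cells, Cd8b1 had 18 and 19.

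Of 13 listed genes of cytotoxic granules and effector function 11 were tested, and in b-gal+ against b-gal- cells 2 were called lower, Ifng and Rab27a, and none higher, where 13% of all genes were called lower and 10.4% higher. The median was -1.06. Rab27a, a GTPase that docks granules, fell by 2.43 ± 0.33 (limma's adjusted p = 0.00326), with 18.6 and 9.05 CPM in b-gal+ against 74.3 and 69.7 in b-gal-. Stx11, a syntaxin of granule fusion, had 31.8 and 28.9 CPM in b-gal+ against 20.1 and 13.2 in b-gal-, and Unc13d, which primes granules, 26.7 and 35.2 against 53.2 and 56.6, both without a call. The chemokine Ccl5 had 1.88 and 3.34 CPM in the b-gal+ pools, 2.61 and 12.2 in the b-gal- pools, 13.6 and 9.84 in the EpCAM-positive pools, and 0.369 and 0.479 in hepatocytes. Of the 11 tested genes, 2 were called higher in the b-gal+ pools, 8 in b-gal- and 9 in EpCAM-positive cells, each against hepatocytes, where 29.5%, 33.5% and 33.5% of all genes were called higher.

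Of 20 listed NK cell receptor genes 17 were tested, and in b-gal+ against b-gal- cells 1 was called higher, Klrk1, 2 lower, Sh2d1b1 and Il18rap, and 14 were not called, with a median of -1.04. The 3 calls of 17 are no larger a share than the 23.3% of all genes called. Reads of the Klra genes may be shared among close paralogs. Klrk1, which encodes the activating receptor NKG2D, had 39 and 48.3 CPM in the b-gal+ pools, 7.72 and 13.2 in the b-gal- pools, 17.9 and 8.34 in the EpCAM-positive pools, and 0.517 and 0.958 in hepatocytes. The groups other than b-gal- and EpCAM-positive cells did not overlap, and Klrk1 was higher in b-gal+ than in b-gal- cells by 2.05 ± 0.44 (limma's adjusted p = 0.0173). Leaving out b-gal+ replicate 1 (limma's adjusted p = 0.0685), b-gal+ replicate 2 (0.115) or b-gal- replicate 1 (0.0897) ended the call. Klrd1, the CD94 chain of NK receptors, had 0.537 and 0.322 CPM in the b-gal+ pools, 0.806 and 4.89 in the b-gal- pools, 8.78 and 4.71 in the EpCAM-positive pools, and 0.148 and 0.0798 in hepatocytes. Il18rap, a chain of the IL-18 receptor, had 2.01 and 0.885 CPM in the b-gal+ pools, 7.8 and 8.27 in the b-gal- pools, 20.8 and 8 in the EpCAM-positive pools, and 0.148 and 0.239 in hepatocytes. It differed by -2.19 ± 0.50 in b-gal+ against b-gal- cells (limma's adjusted p = 0.021). That p was 0.135 without b-gal+ replicate 2, 0.0785 and 0.117 without b-gal- replicates 1 and 2, and 0.0518 and 0.0519 without hepatocyte replicates 1 and 2. Cd244, a receptor of NK and other cells, had 13.3 and 3.9 CPM in b-gal+ against 14.7 and 8.61 in b-gal-.

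Of 19 listed transcription factor genes of lymphocytes 18 were tested, and in b-gal+ against b-gal- cells 4 were called lower, Tcf7, Runx3, Ikzf3 and Ets1, 2 higher, Zbtb7b and Id2, and 12 not called, with a median of -0.89, where 13% of all genes were called lower and 10.4% higher. Against EpCAM-positive cells 12 were called lower in the b-gal+ pools, where 17.9% of all genes were, and 1 higher, where 14.7% were. Ets1, a factor of lymphocytes and endothelium that binds the ETS core, had 186 and 135 CPM in the b-gal+ pools, 1088 and 1284 in the b-gal- pools, 553 and 434 in the EpCAM-positive pools, and 42.7 and 69.6 in hepatocytes. It fell by 2.90 ± 0.29 in b-gal+ against b-gal- cells (limma's adjusted p = 0.00136), and the summed endothelial markers were lower there too. Id2, a factor needed by innate lymphoid cells and used elsewhere, was higher by 1.29 ± 0.18 (limma's adjusted p = 0.00356). Zbtb7b, the ThPOK factor of CD4 T cells, had 102 and 99.8 CPM in b-gal+ against 56.1 and 35.6 in b-gal-, higher by 1.16 ± 0.21 (limma's adjusted p = 0.00996). Without b-gal+ replicate 1 or 2 limma's adjusted p of Zbtb7b was 0.0574 and 0.0644. Rora had 8.23 and 6.68 CPM in the b-gal+ pools, 18.4 and 23 in the b-gal- pools, 30.3 and 127 in the EpCAM-positive pools, and 163 and 166 in hepatocytes, so that its highest level lay in hepatocytes.

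Partners of the IL-7 receptor and the common gamma chain family numbered 15, all tested. In b-gal+ against b-gal- cells 2 were called higher, the cytokine genes Tslp and Il15, and 3 lower, Il9r, Jak1 and Jak3, with a median of -0.02, equal to that of all genes. Over all genes 10.4% were called higher and 13% lower. Jak1, the kinase bound to the IL-7 receptor alpha chain, fell by 1.62 ± 0.23 (limma's adjusted p = 0.00376), with 486 and 427 CPM in b-gal+ against 1433 and 1362 in b-gal-. Jak3, the kinase bound to the common gamma chain, had 140 and 114 CPM in b-gal+ against 337 and 393 in b-gal-, and fell by 1.52 ± 0.34 (limma's adjusted p = 0.0201). Leaving out b-gal+ replicate 1 (0.0682) or 2 (0.124), or b-gal- replicate 1 (0.0609) or 2 (0.121), ended that call by limma's adjusted p. Il4ra and Stat5b, which serve many cell types, had 277 and 180 CPM and 92.3 and 95.5 CPM in b-gal+, against 264 and 223 CPM and 121 and 139 CPM in b-gal-, without a call.

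Homing and activation receptors of lymphocytes numbered 18, all tested. In b-gal+ against b-gal- cells 2 were called higher and 4 were called lower (Ccr7, S1pr1, S1pr5 and Itga1), with a median of -0.81, where 10.4% of all genes were called higher and 13% lower. In b-gal- against EpCAM-positive cells 2 were called higher and 6 lower, where 5.63% and 6.57% of all genes were. Against hepatocytes 6 of 18 were called higher in b-gal+, 9 in b-gal- and 14 in EpCAM-positive cells, where 29.5%, 33.5% and 33.5% of all genes were, and the difference between these counts was not tested. S1pr1, the receptor for lymphocyte exit that endothelium also carries, fell by 3.11 ± 0.23 (limma's adjusted p = 0.000901), and the integrin Itga1 by 3.31 ± 0.34 (0.00141), both in b-gal+ against b-gal- cells. Itgb7, an integrin chain of gut-homing lymphocytes, had 19.9 and 23.4 CPM in the b-gal+ pools, 36.1 and 32 in the b-gal- pools, 228 and 79.8 in the EpCAM-positive pools, and 0.369 and 1.04 in hepatocytes.

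Genes with profiles most like those of the members were read from the same distance over 8 libraries. The search covered 12849 other genes that averaged 1 CPM or more, with predicted genes (Gm with a number, or names ending in Rik) left out. The 5 nearest to Cd3e were Il18r1 at 0.21, Sh2d2a at 0.25, Klrd1 at 0.25, Klrb1b at 0.26 and Klri2 at 0.29. The 5 nearest to Gzma were farther off, with Nkg7 at 0.60, Cd209d at 0.62, Mybl2 at 0.62, Slfn3 at 0.63 and Rab37 at 0.64. For Cd4 and Il7r, added after their values were seen, the nearest were Adam22 at 0.37, Xlr at 0.43 and Slc14a1 at 0.45, and Phf11a at 0.17, Fnbp1 at 0.37 and Tagap at 0.38. Adam22, for example, had 11.2 and 18.1 CPM in the b-gal+ pools, 3.03 and 3.96 in the b-gal- pools, 8.24 and 3.37 in the EpCAM-positive pools, and 0.295 and 0.639 in hepatocytes. Its group means were in the same order as those of Cd4, but its b-gal- and EpCAM-positive libraries overlapped.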

How the data were processed

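Bulk RNA of 8 libraries was read from 1 deposited table each. Reads were counted per gene symbol with HTSeq on GRCm38.p4 (mm10), per the submitters' processing notes; aligner, annotation and scaling are not given in the sources used here. Hepatocyte replicate 1 was deposited as plain read counts. The other 7 deposited tables hold counts multiplied by 1 factor per library (1.08 to 1.54), with decimal commas, and division by the smallest step gave whole reads for 100% of values within 0.01. Of 21982 rows, 14 hold dates in place of symbols (0.0514% to 0.182% of a library) and were left out.

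Reads were scaled with TMM (edgeR 4.0.16; factors 0.527 to 1.48) to CPM. Genes kept by edgeR's filter were tested with limma 3.58.1 (trend, two-sided, log2(CPM + 0.5), 8 libraries in 1 fit, Benjamini-Hochberg over 14404 genes) for 6 comparisons. The filter asks for enough reads in 2 libraries, so listed genes near 0 in 1 group can enter through the others. edgeR's quasi-likelihood test, DESeq2 1.42.0, other scalings, pseudocounts, filters and left-out libraries were alternatives. The limma test was also tested on simulated data. Intervals of shares are Clopper-Pearson at 95%, and they and floors cover counting error only. The members and lists were chosen with earlier results of these data known. Named were all members, the 4 genes per pathway list with the highest mean CPM and the 5 nearest profiles to Cd3e and Gzma, with exceptions marked; genes listed beside a count of 5 or fewer calls were named after their values were seen. RefSeq held a promoter for 9 of the 10 members. 1 gene that this rule names is not reported here.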

Additional observations from a re-analysis of the deposited data

How the results depend on the processing

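The fit has 2 libraries a group and 4 residual degrees of freedom, and most members have under 100 reads in a library, so calls are sensitive to single libraries. Of 1080 member differences recomputed over 18 alternatives, 973 kept direction and side of the threshold, 41 gained a call, 54 lost one and 12 changed sign. The counts of calls outside the 1.5-fold range of the values in the text were 3 for b-gal+ over b-gal- and 5 for b-gal+ over hepatocytes with DESeq2, 7 for b-gal+ over hepatocytes and 3 for b-gal+ over EpCAM-positive cells when only the groups compared were fitted, and 3 for b-gal- over hepatocytes with a pseudocount of 2 CPM. With each library left out in turn the counts ran from 0 to 5 for b-gal+ over b-gal-, 2 to 3 for b-gal+ over hepatocytes, 2 to 10 for b-gal- over hepatocytes, 7 to 9 for EpCAM-positive over hepatocytes, and 0 to 6 for b-gal+ over EpCAM-positive cells; for b-gal- over EpCAM-positive cells they stayed at 0. A group left with 1 library is assumed to vary like the others. The number of all genes called also changed with these settings, as from 3358 to 4368 with DESeq2 in b-gal+ over b-gal-.

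The 12 changes of sign, none of a called difference, came with a library left out, and the cause was not tested. Over the left-out libraries, Il7r ran from -0.38 to 0.75 in b-gal+ over b-gal-. In b-gal+ over EpCAM-positive cells Gzma ran from -1.82 to 1.08, Ncr1 from -0.49 to 0.30 and Il7r from -0.96 to 0.29. In b-gal- over EpCAM-positive cells Cd3e ran from -1.84 to 0.07, Nkg7 from -0.50 to 1.09, Gzma from -0.76 to 2.14 and Il7r from -1.15 to 0.10.

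At the scale of the deposited values the median of all genes moved to 0.87, 1.13 and 1.32 in b-gal+, b-gal- and EpCAM-positive cells over hepatocytes, and to -0.16 and -0.33 in b-gal+ over b-gal- and over EpCAM-positive cells, and no member changed sign. Of all genes called, 76.7%, 79.7% and 84.9% were then higher over hepatocytes, against 49.9%, 53% and 53.5%, and 32.5% in b-gal+ over b-gal-, against 44.4%; over EpCAM-positive cells the shares were 25.6% against 45.1% in b-gal+ and 25.5% against 46.2% in b-gal-. The count of all genes called in b-gal- over EpCAM-positive cells was 0 when only these groups were fitted and 2855 with DESeq2, against 1757.

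Same-numbered libraries deviated together (r = 0.18 to 0.49 over genes for 6 pairs of groups), but a comparison has 2 pairs and the labels do not tie numbers to mice, so whether the numbers pair the libraries is not known. With the replicate number as a block the counts were 1, 2, 8, 8, 6 and 0 as in the fit without it, and no member's call changed.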
